A study of Mus musculus with 16 samples.

Results

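The guanylate-binding protein genes described here are 10 mouse genes, Gbp2 to Gbp11, chosen by symbol from the gene annotation that the authors deposited. The 10 symbols were carried by 12 gene models, because Gbp6 and Gbp11 each had 2 models under different gene IDs. These were 12 of 50592 gene models in the annotation, which held 22159 protein-coding models for comparison. Of the 10 members, 4 lay on chromosome 3 and 6 on chromosome 5. Gbp2b, and the model Gbp1 that covers it, lie among the chromosome 3 members but carry other symbols and were not counted as members.

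The study measured which RNAs are translated in mouse bone-marrow-derived macrophages, grown for 7 days with M-CSF at 50 ng/ml, with and without LPS (lipopolysaccharide), the endotoxin of Gram-negative bacteria. Its 16 libraries comprised RNA-seq of wild-type C57BL/6 cells (3 LPS, 3 untreated), ribosome profiling of wild-type C57BL/6 cells with CHX in the titles (2 LPS, 2 untreated), and RiboTag libraries from LysM-Cre x RiboTag cells (2 untreated, 2 after 6 h of LPS, 2 after 24 h). In RiboTag, LysM-Cre, which is active in myeloid cells, switches on a tagged ribosomal protein, and RNA is recovered from ribosomes pulled down with an anti-HA antibody. For single RNA-seq and ribosome profiling libraries, the sources used here give no LPS duration. Expression values, library depth and cell type markers were not analysed here, since the annotation holds 0 columns of values per library, and the results below describe gene structure, which has no replicates and no error of its own.

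Guanylate-binding proteins are large GTPases that macrophages make in quantity after interferon. They bind the vacuoles and surfaces of intracellular bacteria and parasites, where they help to disrupt the membrane and to expose bacterial LPS to the inflammasome that caspase-11 starts. Their transcription is driven by interferon through the gamma-activated site (GAS) and the interferon-stimulated response element (ISRE).

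The chromosome 3 cluster ran from Gbp5 to Gbp2 on the plus strand, at chr3:142493978-142638008 (mm10), a span of 144031 bases. In the direction of transcription the order was Gbp5, Gbp7, Gbp3, the non-member Gbp2b and Gbp2. Gbp5, which in mouse macrophages promotes assembly of the NLRP3 inflammasome, lay at chr3:142493978-142522344. Gbp7, linked in mouse macrophages to the NADPH oxidase and to autophagy, followed at chr3:142530342-142550149, after a gap of 7997 bases. A further 9876 bases separated it from Gbp3 at chr3:142560026-142573209. Gbp2b, at chr3:142594847-142619179, began 21637 bases after Gbp3. Gbp2, a prenylated protein that coats parasite vacuoles in mouse cells, occupied chr3:142620602-142638008. It began 1425 bases after the end of the model Gbp1. Apart from Gbp models, 2 gene models fell inside the cluster, a processed pseudogene and a microRNA gene, and neither was protein-coding. The nearest coding genes outside were Pdlim5, which encodes a PDZ and LIM domain protein and ended 98281 bases before Gbp5, and Ccbl2, which encodes a kynurenine aminotransferase and began 63042 bases after Gbp2.

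The chromosome 5 cluster lay on the minus strand at chr5:105014150-105346472, a span of 332323 bases. By rising position its order was Gbp8, Gbp9, Gbp4, Gbp10, Gbp6 and Gbp11, so that Gbp11 comes first in the direction of transcription. Gbp8 was annotated at chr5:105014150-105139540, Gbp9 at chr5:105077630-105139539 and Gbp4 at chr5:105115767-105139586. These 3 spans overlapped and had nearly the same 5′ end. Gbp10 lay at chr5:105215699-105239533 and Gbp6, under ENSMUSG00000104713, at chr5:105270702-105293698, 31168 bases further on. Another 29343 bases separated Gbp6 from Gbp11 at chr5:105323042-105346472. The sole model of another symbol inside this cluster was Gm9640, between Gbp4 and Gbp10, a model of RefSeq source without a coding sequence (CDS). The flanking coding genes were Abcg3, an ABC transporter gene that ended 31431 bases before Gbp8, and Lrrc8b, which encodes a subunit of volume-regulated anion channels and began 69302 bases after Gbp11. The map of exons along each cluster shows 1 transcript each of Gbp8 and Gbp9 with a very long first intron, and a transcript of ENSMUSG00000079362 with a very long last intron.

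**Figure D1:**
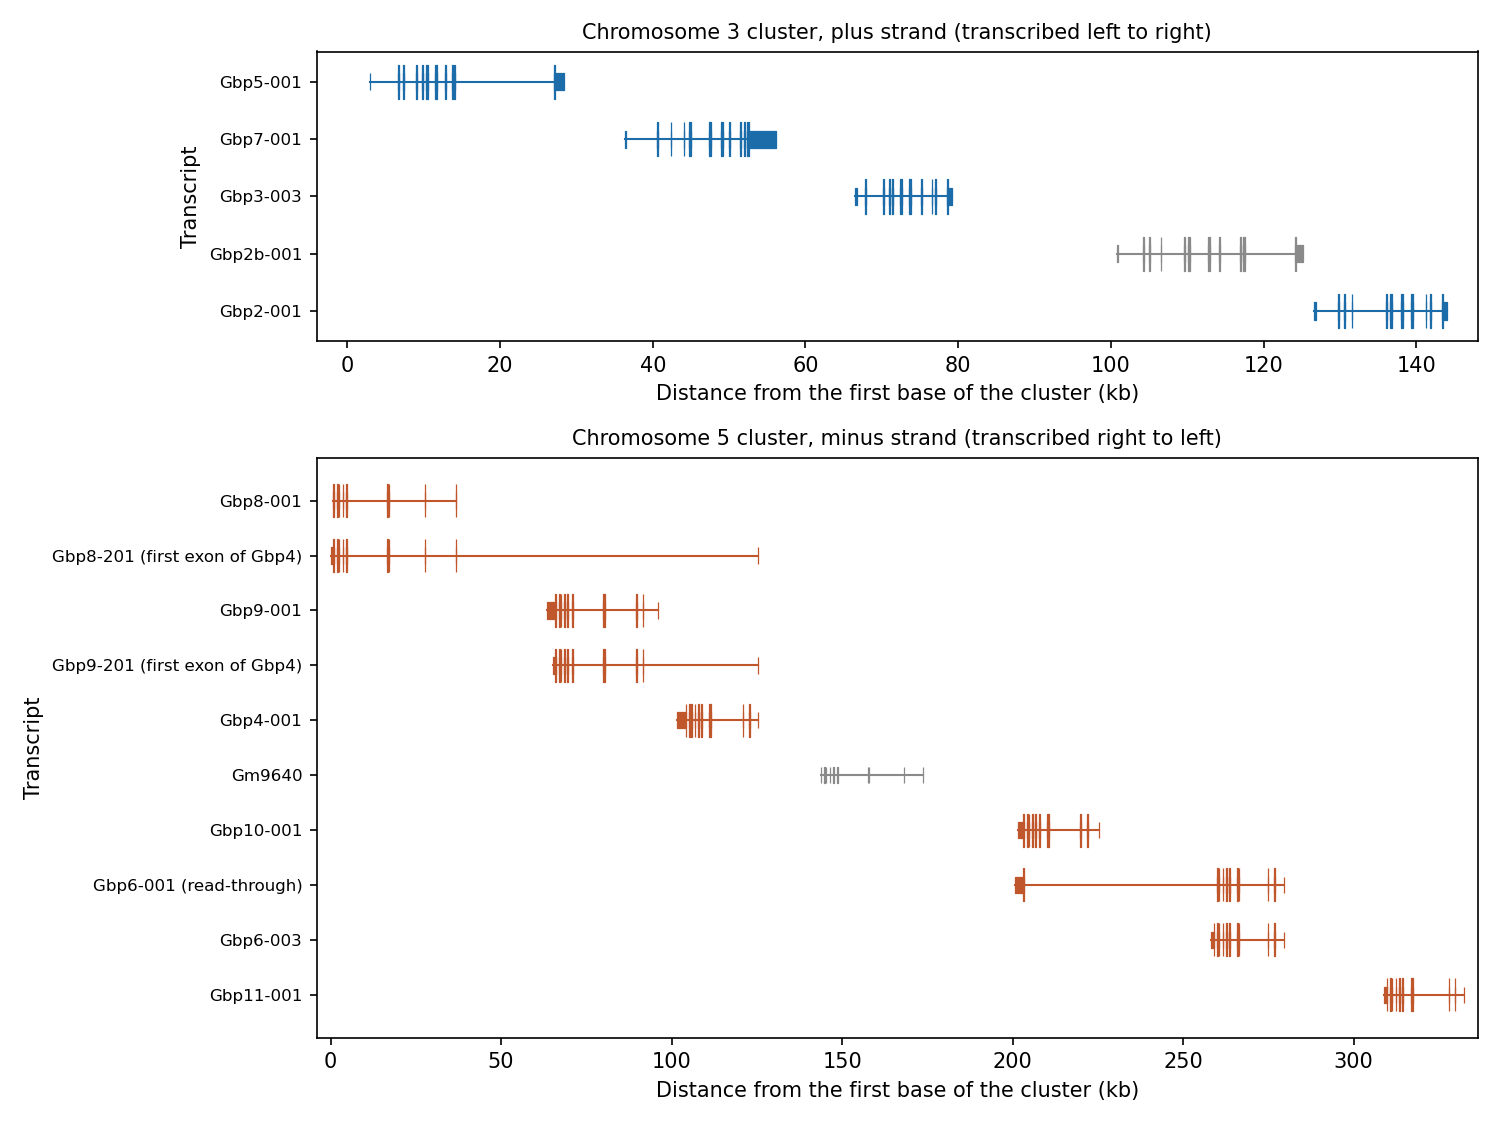
Exons of chosen transcripts along each cluster; the horizontal axis is the distance in kb from the first base of the cluster, tall boxes are coding and low boxes untranslated exon parts, and grey marks models that are not members. The transcripts of Gbp8 and Gbp9 marked with the first exon of Gbp4 extend to that exon, and the transcript of ENSMUSG00000079362 extends over Gbp10.

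Promoter windows of 300 bases, with 250 before the RefSeq start and 50 after it, were matched for 4 of the 10 members, Gbp5, Gbp7, Gbp3 and Gbp2, in 5 windows, and for Gbp2b. Gbp3 had 2 windows. Gbp4, Gbp6, Gbp8, Gbp9, Gbp10 and Gbp11 were not matched. The ISRE core GAAANNGAA, searched on both strands, was found in all 4 matched members and in 4 of their 5 windows, against 8.56% of all 32851 RefSeq promoter windows. Every member match was on the strand opposite to the gene, so the letters printed here, in the direction of transcription, are the reverse complement of the core. The matched stretches with 6 flanking bases are shown because they allow the element to be compared between the 4 genes and Gbp2b; sequences are from RefSeq, build GRCm38.p6, plus strand, and capitals mark the ISRE core.
Gbp5 (chr3:142496764-142496784): tgtagtTTCAATTTCagttta
Gbp7 (chr3:142530278-142530298): tgcagtTTCAGTTTCagttct
Gbp3 (chr3:142559994-142560020): cacagtTTCAGTTTCTATTTCccagat
Gbp2 (chr3:142620599-142620619): tttagtTTCACTTTCactgtc
Gbp2b (chr3:142594705-142594725): tctaatTTCACTTTCttcttt
In Gbp3 the core occurred 2 times with overlap, its first bases 44 and 38 bases before the RefSeq start. The match began 52 bases before the start in Gbp7, 58 bases before it in Gbp2 and 164 bases before it in Gbp5. Among the 4 members the match of Gbp5 was therefore the most distant, and in the non-member Gbp2b it began 136 bases before the start. The Gbp2 match lies within the longest deposited Gbp2 transcript, Gbp2-001, whose first exon starts upstream of the RefSeq start.

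The GAS motif TTCNNNGAA, searched on both strands, is a palindrome and so gives the same matches on each. It occurred in the windows of 2 of the 4 members, Gbp5 and Gbp7, with 2 matches each, against 8.3% of all windows. In Gbp7 both matches lay just upstream of the ISRE core, at 106 and 87 bases before the start. In Gbp5 they stood on either side of it, at 245 and 52 bases. The stretches up to the first deposited exon in each window, or up to the RefSeq start where that comes earlier, are printed for these 2 genes to show the elements in their order, with GAS and ISRE matches in capitals (RefSeq, GRCm38.p6, plus strand). The noncoding transcript Gbp5-004 starts further upstream, at position 142493978, and the Gbp5 stretch lies in an intron of it.
Gbp7 (chr3:142530086-142530335): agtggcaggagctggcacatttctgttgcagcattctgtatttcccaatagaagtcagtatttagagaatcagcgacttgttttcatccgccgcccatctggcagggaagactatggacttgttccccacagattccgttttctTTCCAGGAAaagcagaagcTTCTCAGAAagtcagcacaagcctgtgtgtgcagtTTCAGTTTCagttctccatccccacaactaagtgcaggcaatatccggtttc
Gbp5 (chr3:142496684-142496899): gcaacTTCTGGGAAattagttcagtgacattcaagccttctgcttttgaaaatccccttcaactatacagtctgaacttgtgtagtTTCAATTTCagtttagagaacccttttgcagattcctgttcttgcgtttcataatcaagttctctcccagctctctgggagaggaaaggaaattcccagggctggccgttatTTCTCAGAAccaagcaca
The remaining motifs were found in 1 to 3 of the 4 members. The AP-1 motif TGANTCA was found only in Gbp2 among the 4 members, 102 bases before the start, against 7.81% of all windows. The kappaB motif was found only in Gbp5, 77 bases before the start and on the strand opposite to the gene, against 4.51%. The TATA box letters TATAAA were found only in a Gbp3 window, 207 bases before the start, against 13.6%. That match too was on the strand opposite to the gene, and 0 member windows held TATAAA on the strand of the gene. The ETS core GAGGAA was found in 1 window each of Gbp5, Gbp7 and Gbp3, against 28.3%. It lay 84 bases before the start in Gbp5 but after the start in Gbp7. In Gbp3 it lay in the second window, 195 bases before that start and not upstream of the deposited exons. All of these were searched on both strands, and no searched motif overlapped another apart from the pair of ISRE cores in Gbp3. A match describes letters in the window and not binding.

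**Figure D2:**
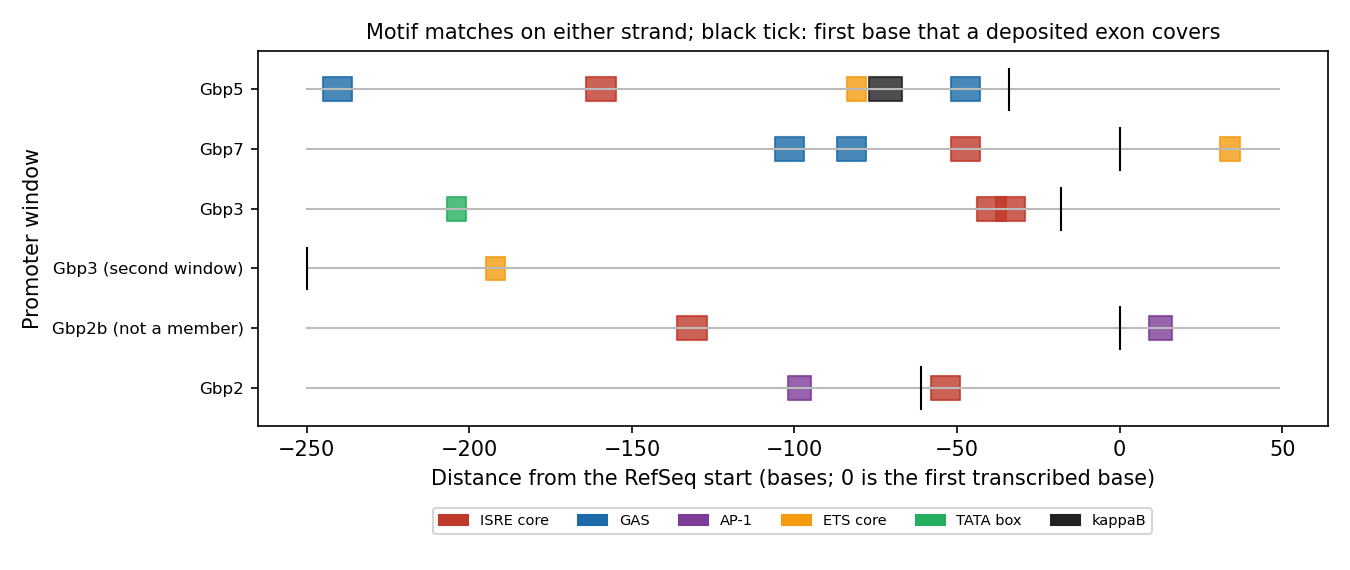
Motif matches on either strand in the promoter windows of the 4 matched members and Gbp2b; the horizontal axis is the distance in bases from the RefSeq start, each coloured box is a match and the black tick marks the first base covered by a deposited exon. The ISRE core is the motif found in every matched gene, and its matches begin between 38 and 164 bases before the start.

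Coding structure was close to uniform across the 10 members. Their 12 models held 39 transcripts, of which 23 were annotated as protein-coding, 5 as targets of nonsense-mediated decay, 6 as retaining an intron, 4 as processed transcripts and 1 as a polymorphic pseudogene. For each member the complete protein-coding transcript with the longest CDS was used, and it had 10 coding exons in 9 members and 9 in Gbp8. Of 21553 coding genes with a complete CDS, 4.11% had 10 coding exons. Taking the longest CDS of any transcript, the CDS ranged from 525 codons in Gbp8 to 724 in Gbp5. The 724 codons belong to Gbp5-002, a transcript annotated as a target of nonsense-mediated decay, and the values that follow are of protein-coding transcripts, a choice made after seeing the data. In these the CDS ranged from 525 codons in Gbp8 to 638 in Gbp7, with a median of 615 codons over the 10 members, against a median of 396 over those coding genes. Gbp4 had 631 codons, Gbp3 620, Gbp9 and Gbp11 619 each, Gbp6 and Gbp10 611 each, Gbp5 590 and Gbp2 589. The range of 525 to 638 codons was set by the members, so all 10 lie in it by definition. A CDS within it occurred in 8.76% of coding genes. The range together with 10 coding exons occurred in 0.752% of coding genes and in 9 of the 10 members.

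The lengths of the internal coding exons recurred from gene to gene. Coding exon 3 had 110 bases, coding exon 6 had 281 and coding exon 8 had 103 in 10 of 10 members. Coding exon 2 had 128 bases in 9 members and 124 in Gbp4, and Gbp4 was also the member whose reading frame at that exon differed from the other 9. Coding exon 4 had 197 bases in 9 members and 200 in Gbp5. Coding exon 9 had 194 bases in 9 members and 182 in Gbp5. The lengths of exons 4, 5 and 9 in Gbp5 differed from the commonest by whole codons, and the reading frame at the start of every coding exon other than the second was the same in all members that have the exon. Coding exon 5 had 246 bases in 7 members and 243 in Gbp5 and Gbp2. Gbp8, aligned by exon lengths, had no counterpart of it, and the frame downstream was kept. Its intron between coding exons 4 and 6 spanned 11986 bases.

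Coding exon 7 separated the clusters without overlap, with 213 bases in 4 of 4 chromosome 3 members and 207 bases in 6 of 6 chromosome 5 members. Coding exon 1 had 190 bases in Gbp5, Gbp7 and Gbp2 and 172 in Gbp3. On chromosome 5 it had 184 bases in 5 members and 212 in Gbp4. The last coding exon was the most variable, with 8 different lengths among 10 members, from 108 bases in Gbp2 to 252 in Gbp7. It encodes the C terminus, where Gbp2, Gbp5 and the non-member Gbp2b carry the motif for prenylation, the lipid that anchors them to membranes. Gbp6 and Gbp10 had identical lengths in 10 of 10 coding exons, and so did Gbp9 and Gbp11. Gbp2 likewise matched the non-member Gbp2b in 10 of 10. Gbp5 shared the fewest with the others on its chromosome, 6 of 10 with Gbp7, 5 with Gbp3 and 7 with Gbp2.

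**Figure D3:**
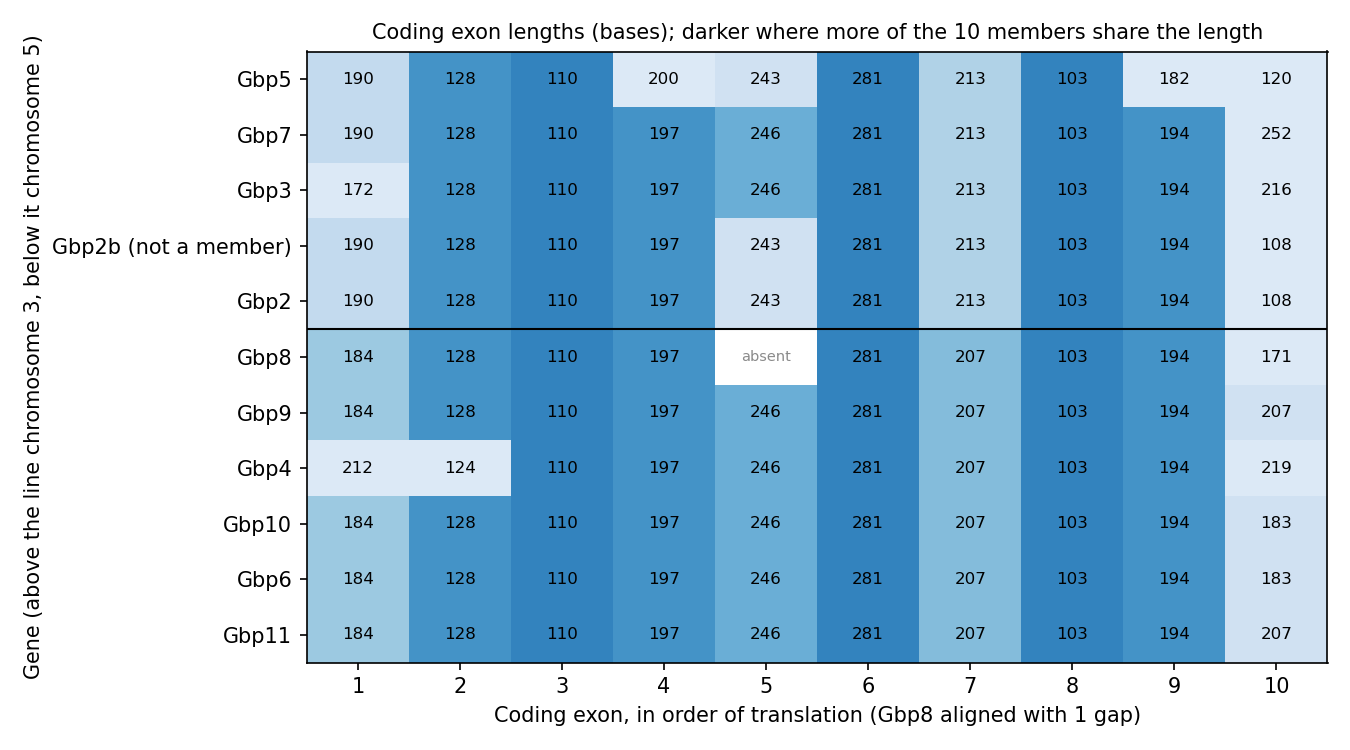
Length in bases of each coding exon (columns, in order of translation) in the 10 members and Gbp2b (rows); darker cells mark lengths that more members share, and the horizontal line separates the chromosome 3 genes from the chromosome 5 genes. Exons 3, 6 and 8 have 1 length throughout, exon 7 has 213 bases above the line and 207 below it, and exon 5 is absent from Gbp8.

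The run of adjacent exons with 281 bases, 207 or 213 bases and 103 bases was then searched in all 115521 transcripts. These lengths were taken from the members' own coding exons, so a match in the member models was fixed in advance. It was present in 23 transcripts of the 12 member models and in 3 transcripts of 3 other models. Those 3 models were Gbp1, Gbp2b and Gm9640, all inside the 2 clusters, and Gbp1 and Gbp2b cover the same exons.

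Introns differed more between the clusters than exons did. The intron between coding exons 2 and 3 had 8362 to 10555 bases in the 6 chromosome 5 members, against 714 to 1626 bases in the 4 chromosome 3 members, so the ranges did not overlap. The intron between coding exons 3 and 4 had 182 to 185 bases in the 6 chromosome 5 members. On chromosome 3 the same intron had 189 bases in Gbp3, 597 in Gbp5, 600 in Gbp7 and 4346 in Gbp2. From coding exon 6 on, the chromosome 5 introns had narrow ranges, at 662 to 676 bases after exon 6, 907 to 1030 after exon 7, 325 to 329 after exon 8 and 865 to 906 after exon 9. The chromosome 3 introns had wider ranges at each of these places, after exon 9 from 264 bases in Gbp7 to 12943 in Gbp5. The ranges of the clusters also did not overlap between exons 3 and 4, nor after exon 6, where chromosome 3 had 792 to 1220 bases. At the other places present in both clusters they overlapped. Gbp8 and Gbp9 stood apart on chromosome 5, Gbp8 with 8883 bases after coding exon 1 against 1619 to 1852 in the other 5 members, and Gbp9 with 8905 bases after coding exon 4 against 2014 to 2329 in Gbp4, Gbp6, Gbp10 and Gbp11.

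**Figure D4:**
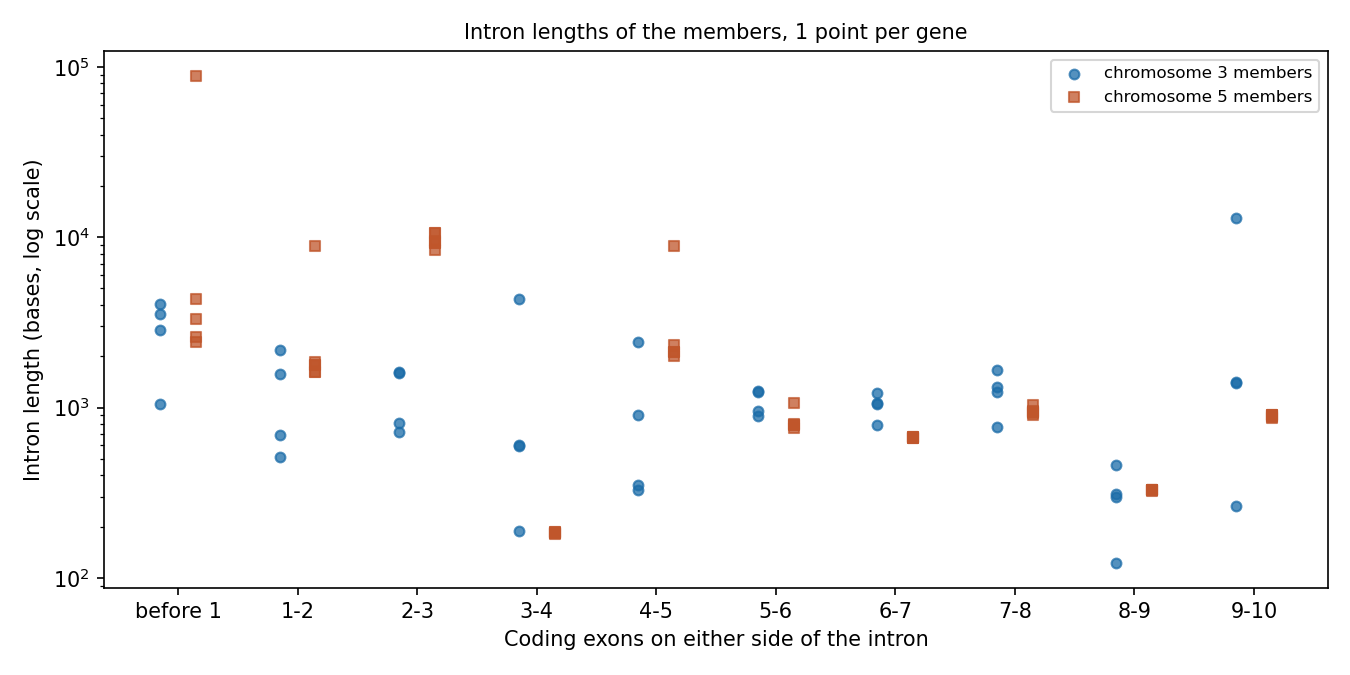
Intron length in bases on a log scale for each place between coding exons, with 1 point per member; circles are the 4 chromosome 3 members and squares the 6 chromosome 5 members. The squares lie above all circles between exons 2 and 3, and they sit close together between exons 3 and 4 and from exon 6 on, where the circles spread.

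Untranslated ends were less alike. In most members the start codon lay in exon 2, behind a noncoding first exon. In Gbp3-001 it lay in exon 3 of 12. Gbp7 had 2 protein-coding transcripts of the same 638 codons, with 3′ untranslated lengths of 3575 bases in Gbp7-001 and 476 bases in Gbp7-002. In Gbp9 the 3′ end had 2425 bases in Gbp9-001 and 757 bases in the transcript of the source ensembl. In Gbp6 it had 2398 bases in the transcript of ENSMUSG00000079362, whose last exon covers that of Gbp10 and runs past its 3′ end, and 691 bases in Gbp6-003. Gbp4-001 had 2511 bases, Gbp10-001 had 1606, Gbp5-001 had 1182 and Gbp2-001 had 515. Gbp5 was the member with a CDS longer than that of its protein-coding transcript. Gbp5-002 carried 724 codons, against 590 in Gbp5-001.

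Exon bases shared between gene models matter for any later counting of reads, since a read in a shared exon cannot be given to a single gene by position alone. At least 1 exon base was shared with another model on the same strand by 9 of the 12 member models, that is 7 of 10 symbols, against 13.3% of all coding models. On chromosome 5 all 8 models shared bases, and on chromosome 3 only 1 of 4 did. Over 50% of exon bases were shared in 3 of the 12 models, against 7.45%. Sharing with a coding model of another symbol applied to 5 of the 12, against 3.66%. Since several members share with each other, these models are not independent counts.

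**Figure D5:**
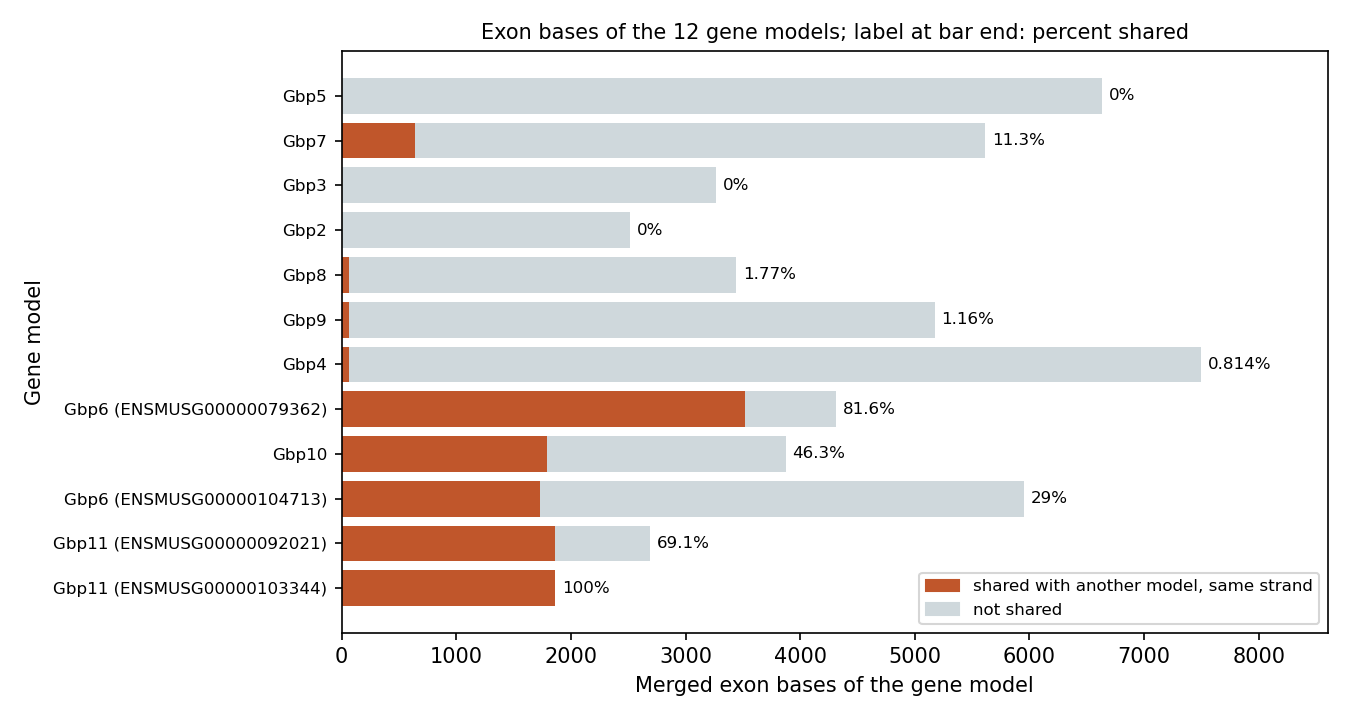
Merged exon bases of the 12 member models (horizontal axis), with bases that another model on the same strand also covers in orange and the percentage at the end of each bar. Gbp5, Gbp3 and Gbp2 share none, and the second Gbp11 model, ENSMUSG00000103344, shares 100%.

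On chromosome 3, Gbp5, Gbp3 and Gbp2 shared 0 of 6637, 3265 and 2516 exon bases on their own strand. Gbp7 shared 637 of 5614 bases (11.35%), all with the single exon of the processed pseudogene RP23-100J23.5, at chr3:142547882-142548518. That stretch lies in the long 3′ untranslated end of Gbp7-001 and holds 0 coding bases of Gbp7. The non-member Gbp2b shared 2820 of 2823 bases (99.89%) with Gbp1, a model of RefSeq source with 10 identical introns, and Gbp1 is a synonym of Gbp2b in the RefSeq table.

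Gbp2 was instead overlapped on the opposite strand by the microRNA gene Mir6381, at chr3:142623860-142623946. The microRNA gene covered 24 bases at the end of coding exon 1 of Gbp2, at chr3:142623860-142623883. The mature microRNA itself lies beyond that exon, in the following intron, and is shown to place it against the gene, with its seed (bases 2 to 8) in capitals (RefSeq, GRCm38.p6, minus strand).
mmu-miR-6381 (chr3:142623925-142623945): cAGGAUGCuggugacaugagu

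Gbp4, Gbp8 and Gbp9 were linked by a single noncoding first exon. Gbp4, which in mouse cells restrains IRF7-driven interferon production, has this exon as its own, and 8 transcripts of the 3 genes had a first exon with its splice site at position 105139480. Of these, 6 were Gbp4 transcripts, and the others were 1 transcript of Gbp8 and 1 of Gbp9. The shared stretch was 61 bases for Gbp8 (1.772% of its exon bases) and for Gbp4 (0.814%), and 60 bases for Gbp9 (1.16%), with 0 coding bases in each case. These last are the transcripts of Gbp8 and Gbp9 with the source ensembl, the automatic annotation, and had transcript support levels of 5 and 1 on a scale where 1 is the best supported. Their first intron set the annotated spans. It covered 88408 bases in the Gbp8 transcript. Without the 2 transcripts the span of Gbp8 was 39407 bases instead of 125391, and that of Gbp9 was 32648 bases instead of 61910. Gbp8-001, the other complete coding transcript of Gbp8, began directly with a coding exon and had 0 bases of 5′ untranslated sequence.

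Gbp6 and Gbp10 are among the members found to restrict Listeria and mycobacteria in mouse macrophages, and they were joined by a read-through. The model ENSMUSG00000079362, named Gbp6 in the annotation, had a single transcript at chr5:105214907-105293695. Its first 10 exons lay on those of the other Gbp6 model, ENSMUSG00000104713, with which it had 9 identical introns and 1726 shared bases, 1650 of them coding. Its last exon instead covered that of Gbp10, with 1792 shared bases at chr5:105215699-105217490, of which 183 were coding. It ran past the 3′ end of Gbp10 by the 792 exon bases that the model shares with no other. The last coding exon of Gbp6 also has 183 bases, so the read-through transcript, the Gbp6 transcript and the Gbp10 transcript all had 611 codons. In all, 3518 of 4310 exon bases of this model were shared (81.62%), against 1792 of 3873 in Gbp10 (46.27%) and 1726 of 5954 in ENSMUSG00000104713 (28.99%). The read-through transcript came from the manual havana annotation with support level 1, while Gbp6-003, the coding transcript of the other model, had level 5. In the table that pairs gene IDs with symbols, ENSMUSG00000079362 is named Gm43302. The other IDs found there, 10 of 11 matched, carried the same symbol as in the annotation.

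Gbp11 had its 2 models on the same exons. The model ENSMUSG00000103344 had 1 transcript of 1860 exon bases, and 1860 of them (100%) lay in exons of ENSMUSG00000092021, a polymorphic pseudogene in the annotation with 2692 exon bases (69.09% shared). Both models held a CDS of 619 codons and had 9 introns in common. The RefSeq table lists Gbp11 as a transcribed pseudogene. A symbol carried by over 1 Ensembl model on its chromosome was found for 2 of the 10 members, Gbp6 and Gbp11, against 0.215% of coding symbols.

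Counted by transcript, 10 transcripts had exon bases in common with a member of another symbol: the 8 with the first exon of Gbp4, the read-through transcript and Gbp10-001. In 2 of the 10, the read-through transcript and Gbp10-001, coding bases were among those shared. The Gbp4 transcripts and Gbp10-001 are in this count only because transcripts of other members reach their own exons. For all coding genes such sharing is given here by model, at 3.66%, and not by transcript.

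Exon sharing was also read for 32 genes of interferon signalling, inflammasomes, the related IRG GTPases and autophagy. All 32 were found with 1 model each. Of these, 7 shared at least 1 exon base, against 13.3% of all coding models, and none over 50%, against 7.45%. Among these, Ifnar2, a chain of the type I interferon receptor, shared 315 of 3329 (9.462%) with Gm21970. The neighbouring IRG genes Igtp and Irgm2 shared 162 bases, 8.012% of the exon bases of Igtp and 4.474% of those of Irgm2. Tgtp1 shared 6.958%, Ifi47 4.791% and Irf9 2.284%. The 3 member models above 50% thus had no counterpart in this list, which is short for a share of 7.45%.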

How the data were processed

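What was measured in the 16 libraries is given above; the file used is the gene annotation that the authors deposited. Its values are positions, not counts: each line gives the start and end of an exon, a coding stretch, a codon or a transcript, counted from 1, and 0 columns hold values per library, so no group was compared. TopHat2 2.1.1 (a spliced read aligner) and mm10 are listed, per the submitters' processing notes, with no role stated; the making of the annotation itself is not given in the sources used. The chromosomes of mm10 and GRCm38 are the same, and RefSeq starts of Gbp5 and Gbp2b fell on deposited starts, in Gbp5 that of Gbp5-002. In the other windows the nearest deposited start minus the RefSeq start was 6 bases in Gbp7, 8 and 55 in Gbp3 and -28 in Gbp2.

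Models were read with Python 3.11.15 and drawn with matplotlib 3.10.9. Exons of a model were merged, and a base was shared if an exon of another model on the same strand covered it (minimum 1 base; mostly shared, over 50%). CDS lengths exclude the stop codon. For exon lengths, the complete protein-coding transcript with the longest CDS that carried a consensus CDS tag was used, a choice made after seeing the data, or else the longest CDS; Gbp8, with 1 coding exon fewer, was aligned with 1 gap. Motifs were searched in RefSeq windows. The code was tested on simulated data and was right in 2400 of 2400 gene models and 200 of 200 windows.

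No test was run, since gene models are not replicates. All 10 members were named, with other Gbp models, flanking coding genes, models sharing exon bases with a member, and members of the 32-gene list with over 50% shared; other genes of that list were picked with their values known, and 1 gene of it is not reported here. The members and lists were chosen with earlier results of these data known.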

Additional observations from a re-analysis of the deposited data

How the results depend on the processing

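Of 99 alternative values, 68 kept the reported value or, for a count, stayed within 1.5 times of it, and 31 did not. For the main counts and spans, 6 alternatives kept it and 9 did not. For single genes and motifs, 62 kept it and 22 did not. Of the 12 member models, 9 shared exon bases, and 3 did so at over 50% of exon bases. With transcripts of the source ensembl left out, 4 did. Models with transcripts of that source only drop out of this setting, among the members the Gbp11 model ENSMUSG00000103344. The counts of coding models were 2954 as reported, 1651 at over 50% and 2310 with the source ensembl left out. On either strand 10 member models and 7074 coding models shared bases, and against Ensembl sources only 9 and 1386 did. Transcripts with exon bases in common with a member of another symbol numbered 10 as reported. They numbered 2 either without the source ensembl or when coding bases had to be shared. Counting coding models only, other models inside the clusters numbered 0 on chromosome 3, against 2 as reported, and 0 on chromosome 5, against 1. For single genes, medians over transcripts with a CDS gave fewer coding exons than the longest CDS in Gbp2, Gbp3 and Gbp4 and the same number in the other 7 members. Medians over all transcripts gave fewer exons than the transcript with the longest CDS in 9 members and 11 again in Gbp7. In Gbp5 the median of 11 compares with 12 in Gbp5-002, while Gbp5-001, used for exon lengths, also has 11. The longest CDS of any Gbp5 transcript had 724 codons, and the longest of coding biotype, used for the codon range and exon lengths, had 590. On the strand of the gene only, 0 member windows held the ISRE core, against 1471 of all windows. The same setting gave 0 member windows for the TATA box, against 2733 of all windows, and 0 for kappaB, against 910. The alternatives without the source ensembl, with shared coding bases and with coding biotypes were chosen after seeing the data. Protein comparisons were not run, as no protein sequences were used here. No paired analysis was possible because no values per library were analysed. The limit of these results is the annotation itself: support levels differ between transcripts, and the effect of shared exons on counts was not measured.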

Other observations

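Further models near the members had related exon lengths without a CDS. Gm9640, a model of RefSeq source at chr5:105157840-105187847 between Gbp4 and Gbp10, had 10 exons. Its exons 2 to 9 had 128, 110, 197, 246, 281, 207, 103 and 194 bases, the commonest length of each of these coding exons in the chromosome 5 members. Its last exon had 213 bases and its first 61.

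Outside the chromosome 3 cluster, between Gbp2 and Ccbl2, the annotation placed the unprocessed pseudogene RP24-314I8.2 at chr3:142658948-142669041 on the strand of the cluster. It had 7 exons of 132, 108, 195, 240, 279, 216 and 99 bases. None of these lengths equals a length of coding exons 2 to 8 in the chromosome 3 members. In the same order, each lies within a few bases of one, with 216 against 213 bases at exon 7, where chromosome 5 members have 207. No exon base of it was shared with a member.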
